A study of Oryza sativa with 2 samples.

Results

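Described here are 54 of the 65 gene identifiers that start with OrsaiCp, among 57343 gene identifiers in the count tables of young rice plants. They are all OrsaiCp identifiers except OrsaiCp01, OrsaiCp03 to OrsaiCp06 and OrsaiCp08 to OrsaiCp13. This rule uses names and not measured values, but it was set with earlier results of these data known. The 54 members run from OrsaiCp02 to OrsaiCp66. A length and an FPKM value (count scaled to the length in kb and to the library's gene total) were given for 53 of them, and OrsaiCp60 had counts alone. The plants were of genotype Minghui 63 (MH63), a parent of the hybrid Shanyou 63, and were 2 weeks old. They were raised from seed soaked at 37 °C over 72 h, grew with 14 h of day at 32 °C and 10 h of night at 28 °C and were collected at 8:00, and total RNA was depleted of ribosomal RNA before sequencing. The samples are 2 libraries of a single group, called libraries 1 and 2, so no treatment or tissue could be compared. The tissue is labelled seedling, while leaves are named as the source of the RNA. The labels do not tell whether separate plants were used for each, so the spread between the libraries may be technical.

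The plastid genome of land plants is a small genome held in many copies per cell. It encodes part of the proteins of photosystems I and II, of the cytochrome b6f complex, of the ATP synthase and of an NADH dehydrogenase-like complex, together with part of the plastid's own ribosome and RNA polymerase. Many of these genes are transcribed in groups of neighbours, and the long RNAs are then cut and spliced, so neighbouring genes can still differ in RNA level. In rice, as in most land plants, a pair of long inverted repeats carries the same genes in opposite order, so that genes in the repeats have copies at separate places.

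Library 1 held 18096722 gene counts and library 2 held 18799901. Of all counted and uncounted entries, 27.7% in library 1 and 25.8% in library 2 had several alignments and were assigned to no gene. Entries that could belong to overlapping genes were 0.0330% and 0.0338%. How many of these overlapped a member was not tested, and members with few counts could be affected by a small share. No identifier of the tables was found in the reference gene table used here (0 matched by tag or symbol), so members are given by identifier, and the markers of leaf tissue were not looked up. The strand setting of the counting was not given in the sources used here, so reads from a gene and from its opposite strand cannot be told apart. In bulk RNA, fewer plastids or cells and less RNA per cell cannot be told apart either.

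The 54 members held 1245161 counts in library 1 and 1256282 in library 2. These were 6.88% of the library 1 gene total (6.87% to 6.89%) and 6.68% of the library 2 gene total (6.67% to 6.69%), with 95% Clopper-Pearson intervals in parentheses. The intervals do not overlap, but such intervals cover counting error only. The mean share was 6.78% ± 0.140 (SD, n = 2). The 11 other OrsaiCp identifiers held 42.9% and 43.7% of the gene counts, nearly all of it in OrsaiCp01. Without OrsaiCp01, the remaining 10 held 2.07% in library 1 and 1.99% in library 2, less than the 54 members. Among OrsaiCp counts the members took 13.8% in library 1 and 13.3% in library 2.

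Counts were uneven among the members. OrsaiCp33 and OrsaiCp36 alone held 36.3% of the members' counts in library 1 and 35.3% in library 2. The 10 members with most counts held 81.0% and 80.5%, and they were the same 10 identifiers in both libraries. The 53 members with a length had median FPKM values of 540 and 523 in libraries 1 and 2. For the 54 OrsaiPp identifiers the medians were 50.6 and 49.8 FPKM, and for the 57185 MH identifiers, nearly all of which carry a chromosome number, they were 0.0372 and 0.0281 FPKM. Every member had at least 1 count in each library, and 51 of the 54 had 10 or more counts in sum.

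The highest levels belonged to OrsaiCp36, OrsaiCp56, OrsaiCp35 and OrsaiCp33, whose lengths run from 231 to 1527 bases. OrsaiCp36, of 483 bases, had 216521 and 227493 counts in libraries 1 and 2, or 448284 and 471000 counts per kb. OrsaiCp56, of 246 bases, had 383041 and 386411 counts per kb. OrsaiCp35, of 231 bases and the neighbour of OrsaiCp36 by number, had 328952 and 333017 counts per kb. Each of these 3 stood above every other member in both libraries. OrsaiCp33, of 1527 bases, followed with 154048 and 141039 counts per kb. OrsaiCp07 had 96319 and 95073 counts per kb, and OrsaiCp25 had 74108 and 72066. In the authors' FPKM the order was the same, from 24912 ± 199 for OrsaiCp36 to 3964 ± 185 for OrsaiCp25 (SD, n = 2).

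The lowest levels rested on a few counts each. OrsaiCp37, of 1014 bases, had 6 counts in each library, or 5.92 counts per kb, the lowest mean of the 53. OrsaiCp64 had 1 count in library 1 and 4 in library 2, or 3.55 and 14.2 counts per kb. OrsaiCp65 had 4 counts in each library. At such counts the order among the lowest members is not settled. OrsaiCp50 had 4 counts in library 1 and 8 in library 2. OrsaiCp51 had 3 and 5 counts, and OrsaiCp45 had 8 and 16. Each of these 6 had counts in both libraries. In library 1, OrsaiCp64 and OrsaiCp51 did not exceed the 3 counts that a count of 0 would allow.

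By FPKM, the members were divided into levels with limits of 100 and 1000, which were set with the values in view. All 53 fell into the same level in both libraries. At 1000 FPKM or more stood 20 members, which held 92.0% of the members' counts in each library. Between the limits stood 14, which took 5.56% and 5.61% of the members' counts in libraries 1 and 2. Below 100 FPKM stood 19 members, with 0.134% and 0.128%. Lengths overlapped between the levels. The median length was 511.5 bases for the high members, 423 for the middle ones and 372 for the low ones, and the Spearman correlation of length with count per kb across the 53 members was 0.0814. Members share the same libraries and are not independent, so this is a description.

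**Figure D1:**
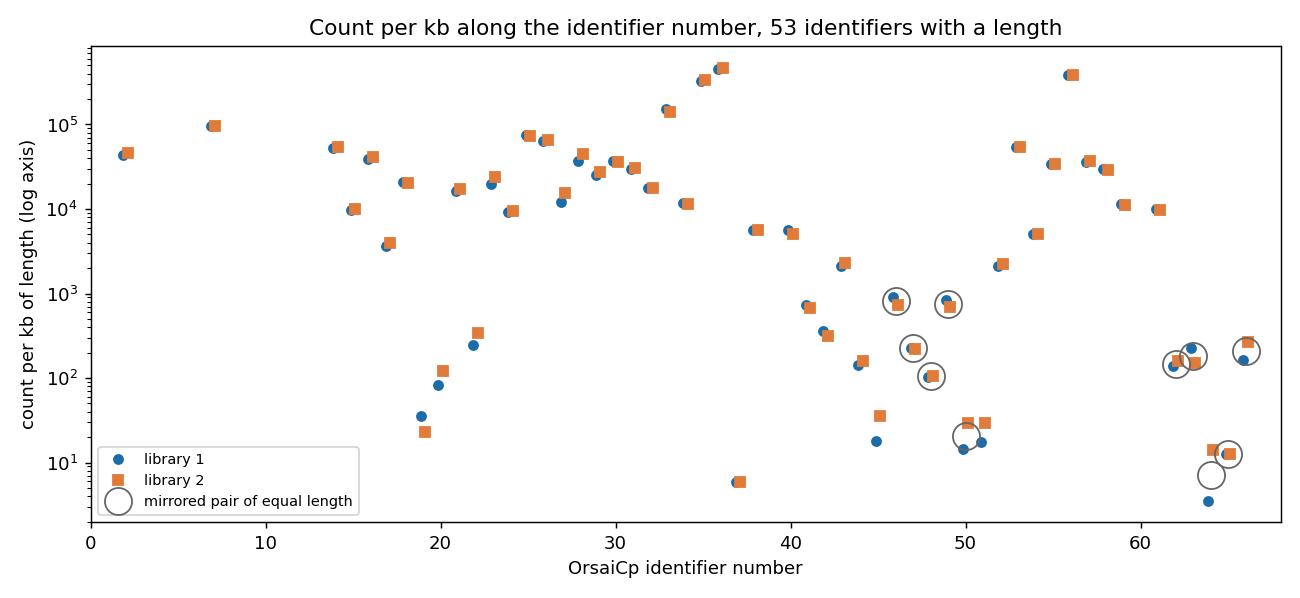
Count per kb of length (log axis) against the number in the OrsaiCp identifier, for 53 members; circles are library 1, squares are library 2, and large open circles mark the 10 members of mirrored pairs of equal length. Members 41 to 51 and 62 to 66 lie at or below 2309 counts per kb, and apart from member 52 those from 52 to 61 lie above them.

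Along the identifier number, the members were divided into stretches whose borders were set with the values in view. The levels within a stretch are therefore a description. The first members, OrsaiCp02 and OrsaiCp07, were high, at 2428 and 5322 FPKM in library 1. Of the 5 members from OrsaiCp14 to OrsaiCp18, 3 were high and 2 were in the middle, with medians of 20909 counts per kb in library 1 and 20393 in library 2. OrsaiCp19 and OrsaiCp20 together had 73 and 92 counts in libraries 1 and 2. The 16 members from OrsaiCp21 to OrsaiCp36 were mostly high, with 10 high, 5 middle and 1 low. This stretch held 58.0% of the members' counts in library 1 and 57.6% in library 2. Its only low member was OrsaiCp22, with 101 and 143 counts.

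The second part of the numbering was mostly lower. Of OrsaiCp37, OrsaiCp38 and OrsaiCp40, the first was low and the others were in the middle. Of the 11 members from OrsaiCp41 to OrsaiCp51, 10 were low, and OrsaiCp43 stood just above the limit with 115 and 123 FPKM. Their median was 229 counts per kb in library 1 and 222 in library 2. All 11 together had 2163 counts in library 1 and 2125 in library 2. From OrsaiCp52 to OrsaiCp61 no member was low. The 9 with a length had medians of 30043 and 29194 counts per kb, and OrsaiCp60, whose length was not given, had 28780 and 28030 counts in libraries 1 and 2. The last 5 members, OrsaiCp62 to OrsaiCp66, were all low, with medians of 139 and 151 counts per kb and 195 and 197 counts in all. With the borders drawn in this way, the 2 low stretches stood on either side of a stretch with no low member.

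Neighbouring members often differed widely. Of 48 steps between members with consecutive numbers, 20 were over 10-fold by mean count per kb, and the median step was 7.0-fold. The direction of the step was the same in both libraries for 45 of the 48. The largest step lay between OrsaiCp36 and OrsaiCp37, which are the highest and the lowest member by mean. OrsaiCp36 was 75760-fold higher per kb in library 1 (95% interval 34806 to 206443) and 79599-fold higher in library 2 (36570 to 216904). OrsaiCp38, on the other side of OrsaiCp37, had 2405 and 2441 counts and was 941-fold higher per kb than OrsaiCp37 in library 1 (432 to 2566) and 955-fold higher in library 2 (438 to 2605). OrsaiCp18, with 12671 and 12358 counts, was 590-fold higher per kb than OrsaiCp19 in library 1 (369 to 1014) and 890-fold higher in library 2 (497 to 1783). OrsaiCp19 itself had 17 and 11 counts. The wide intervals come from the few counts of the low member of each step.

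Members of equal length were then sought, since copies of a gene in the inverted repeats would share their length. Of the 53 members, 14 shared their length with another member, at 6 distinct lengths that make 11 pairs. In 5 of the 11 pairs the identifier numbers add up to 112, and no other sum occurred more than once. Such pairs run in mirror order: OrsaiCp46 with OrsaiCp66, OrsaiCp47 with OrsaiCp65, OrsaiCp48 with OrsaiCp64, OrsaiCp49 with OrsaiCp63 and OrsaiCp50 with OrsaiCp62. Their lengths are 282, 315, 282, 471 and 273 bases. The numbers of these 10 members form unbroken runs, from 46 to 50 and from 62 to 66. Runs in opposite order are the layout of an inverted repeat, but sequence was not analysed here, and a shared length and order do not show that the members of a pair are copies.

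All 10 members of the mirrored pairs were low. Their median was 151 counts per kb in library 1 and 154 in library 2, and their highest was OrsaiCp46 with 904 and 730 counts per kb. The other 43 members had medians of 16361 and 17187 counts per kb, and 9 of them were low. The 10 held 947 counts in library 1 and 839 in library 2. Reads that align at more than a single place were left uncounted, so for copies with the same sequence these counts would be an undercount. The part of such reads in the low levels was not tested. Low levels also occurred outside the pairs, at OrsaiCp37, OrsaiCp19 and OrsaiCp45 among others, whose lengths are shared by no other member.

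The counts of a mirrored pair were unequal, and the same identifier was higher in both libraries for each of the 5 pairs. OrsaiCp49 had 392 counts in library 1 and 328 in library 2, and OrsaiCp63 had 106 and 71. Of this pair's counts, OrsaiCp49 took 78.7% in library 1 (74.9% to 82.2%) and 82.2% in library 2 (78.1% to 85.8%), with 95% Clopper-Pearson intervals in parentheses here and for the other pairs. OrsaiCp46 had 255 and 206 counts and OrsaiCp66 had 46 and 75. The share of OrsaiCp46 was 84.7% in library 1 (80.1% to 88.6%) and 73.3% in library 2 (67.7% to 78.4%). These intervals do not overlap, so this pair's division differed between the libraries by more than counting error.

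The other 3 mirrored pairs had under 100 counts each. OrsaiCp47 had 72 and 70 counts and OrsaiCp65 had 4 in each library, so that OrsaiCp47 took 94.7% (87.1% to 98.5%) and 94.6% (86.7% to 98.5%). OrsaiCp48 had 29 and 30 counts and OrsaiCp64 had 1 and 4, and OrsaiCp48 took 96.7% (82.8% to 99.9%) and 88.2% (72.5% to 96.7%). OrsaiCp50 and OrsaiCp62 were divided the other way. OrsaiCp50 had 4 and 8 counts and OrsaiCp62 had 38 and 43, so that OrsaiCp50 took 9.52% (2.66% to 22.6%) and 15.7% (7.02% to 28.6%). In 4 of the 5 pairs the lower number was therefore the higher one, and each of the 10 intervals lies wholly on one side of an equal division. Reads with several alignments are not in these counts, and their part in the division was not tested.

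**Figure D2:**
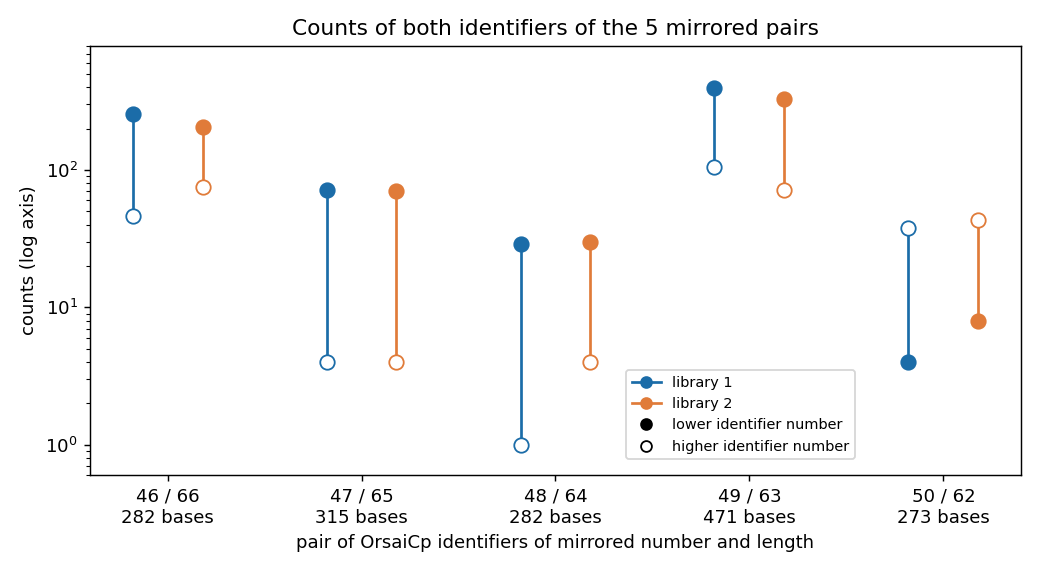
Counts (log axis) of both identifiers of each mirrored pair of equal length; filled points are the identifier with the lower number, open points the one with the higher number, and a line joins them within a library. In 4 pairs the lower number is higher in both libraries, and in the pair of OrsaiCp50 and OrsaiCp62 it is lower.

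The remaining equal lengths did not lie in mirror order. OrsaiCp16 and OrsaiCp52 share 2205 bases, with number sum 68. OrsaiCp16 had 87223 counts in library 1 and 89737 in library 2, and OrsaiCp52 had 4700 and 4948. OrsaiCp22 and OrsaiCp43 share 414 bases, with number sum 65. OrsaiCp22 had 101 and 143 counts, and OrsaiCp43 had 864 and 956. The remaining 4 pairs arise because OrsaiCp46, OrsaiCp48, OrsaiCp64 and OrsaiCp66 all have 282 bases. With the mirrored ones included, the 14 members of equal length had medians of 227 and 244 counts per kb, against 17575 and 17519 for the 39 others, with ranges that overlap. The ratio of these medians depended on how equal length was defined. From mean counts per kb it was 0.0125, and 0.0428 when lengths within 3 bases counted as equal.

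Whether the identifier number follows the order of genes on the plastid genome was examined through lengths. All 53 lengths were divisible by 3, as coding sequences are, against 80.8% of the 40398 MH identifiers in the same range of length, from 120 to 2253 bases. Of the 53 lengths, 43 (81.1%) equalled that of a plastid protein-coding gene in a japonica rice reference table, assembly ASM3414082v1. Among those MH identifiers 11.3% did. Of all 54 OrsaiPp identifiers, taken without a limit on length, 4 did. For 30 members a single row of that table had the length. Taken in the order of their identifier numbers, these 30 reference rows stood in the order of the reference plastid genome at 29 of 29 steps. Genes can share a length without being the same, so the reference symbols below say which gene has the same length and are not names of the identifiers.

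Reference genes with the lengths of 3 of the 5 mirrored pairs were listed in mirror order as well. In the order of the reference plastid genome they were rpl23, rps7, rps15, rps15, rps7, rpl23 and rps19, with 282, 471, 273, 273, 471, 282 and 282 bases. These genes encode ribosomal proteins. The lengths of OrsaiCp48, OrsaiCp49, OrsaiCp50, OrsaiCp62, OrsaiCp63, OrsaiCp64 and OrsaiCp66 run in that order. The last of these rows, rps19, has no counterpart of 282 bases at the start, so OrsaiCp46, the partner of OrsaiCp66, has no row in that order. The length of 315 bases, of OrsaiCp47 and OrsaiCp65, was found at 0 rows. The length of 2205 bases is that of psaB, a photosystem I core protein, and of ndhF, of the NADH dehydrogenase-like complex, so an equal length there belongs to different genes in the reference.

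Grouped by the role of the reference gene of equal length, levels overlapped widely. The 3 members with lengths of photosystem II genes had 744 to 8007 FPKM as means over both libraries. The highest of them, OrsaiCp33, has the length of psbB, a core antenna protein, and the others, OrsaiCp27 and OrsaiCp28, have the lengths of psbF and psbE, the subunits of cytochrome b559. OrsaiCp14, with the length of atpA, an ATP synthase subunit, had 2879 FPKM in library 1 and 2864 in library 2. OrsaiCp26, with the length of petA, which encodes cytochrome f, had 3485 and 3449 FPKM. OrsaiCp17, with the length of psaA, a photosystem I core protein, stood far lower, at 204 and 209 FPKM. OrsaiCp16, OrsaiCp52 and OrsaiCp56 have lengths shared by a photosystem I gene and a gene of another role, so they were not grouped with it. Their mean FPKM values were 2175, 119 and 20860. OrsaiCp02, with the length of matK, which encodes an intron maturase, had 2428 and 2451 FPKM.

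Of the 7 members with lengths of NADH dehydrogenase-like genes, 3 were high, 2 in the middle and 2 low. Those high were OrsaiCp55, OrsaiCp57 and OrsaiCp58, with 1824 to 1863, 1990 to 1999 and 1553 to 1660 FPKM over the libraries. Those low were OrsaiCp19 and OrsaiCp20, with 1.96 and 1.22 FPKM and 4.56 and 6.35 FPKM in libraries 1 and 2. Their lengths are those of ndhJ and ndhK, which stand beside ndhC in the reference. OrsaiCp21, with the length of ndhC, had 904 and 914 FPKM. Of the 10 members with lengths of small-subunit ribosomal genes, 2 were high, 2 in the middle and 6 low. Those low include both members of the mirrored pairs OrsaiCp49 with OrsaiCp63 and OrsaiCp50 with OrsaiCp62. Copies with the same sequence would be undercounted there, which was not tested. Of the 3 with lengths of large-subunit genes, 1 was high and 2 were low. OrsaiCp37 has the length of rpoA, which encodes a subunit of the plastid RNA polymerase, and had 0.327 FPKM in library 1 and 0.315 in library 2.

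The 10 members whose length equalled none in the table stood at widely different levels. OrsaiCp36 and OrsaiCp35 were among them, with 24772 and 18177 FPKM in library 1 and 25053 and 17714 in library 2, and so were the low OrsaiCp47 and OrsaiCp65. Of the 10, 6 were high, 2 in the middle and 2 low. A length in the reference table spans the gene from end to end, introns included, so a gene with an intron need not match by coding length. Another of the highest members, OrsaiCp56, has a length of 246 bases that the table gives for both atpH, an ATP synthase subunit, and psaC, a photosystem I subunit.

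**Figure D3:**
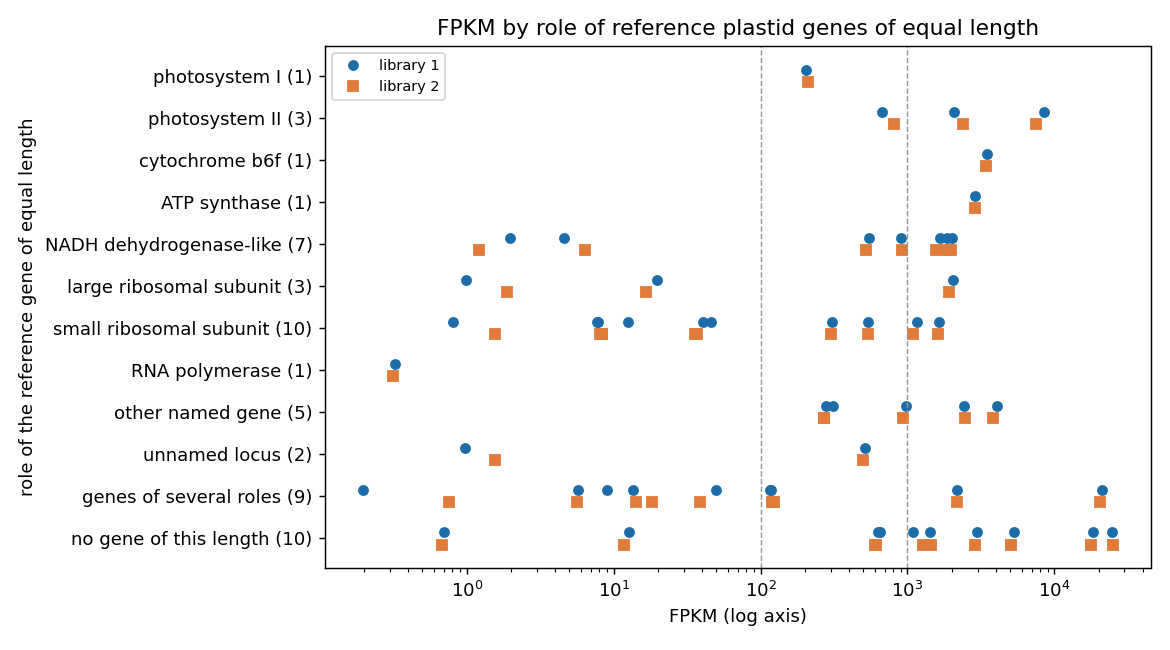
FPKM (log axis) of the 53 members by the role of the reference plastid gene or genes of equal length, with the number of members in parentheses; circles are library 1, squares are library 2, and dashed lines mark 100 and 1000 FPKM. The NADH dehydrogenase-like and ribosomal groups span from about 1 FPKM to above 1000 FPKM.

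The libraries were compared to see how far each member was the same in both. Across the 53 members, log2 count per kb had a Pearson correlation of 0.997 and a Spearman correlation of 0.998 between the libraries, as a description across genes with widely different levels. By count per kb, 25 members held the same rank in both libraries, and the largest shift was by 3 ranks. The log2 ratio of library 1 over library 2, with 0.5 added to each count and scaled by edgeR's TMM factors, had an SD of 0.350 over the 54 members. Most of that spread came from low counts. Over the 34 members that averaged at least 1000 counts the SD was 0.0973, against 0.0837 over all 1533 identifiers at such counts.

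Where the libraries differed beyond sampling noise was asked with an exact binomial test, two-sided and adjusted by Benjamini-Hochberg over all 19770 identifiers that had 10 or more counts in sum. It called 9 of the 51 members tested at an adjusted p under 0.05, against 0.678% of all identifiers tested. OrsaiCp51, OrsaiCp64 and OrsaiCp65 had too few counts to be tested. High counts let the test call small differences, and all 9 averaged over 1000 counts. Of all identifiers that averaged at least 1000 counts 6.2% were called, and of the members there 9 of 34. Where the average was at least 10000 counts 38.7% were called, and 8 of 20 members, so at the highest counts the share of members called was near that of all identifiers.

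Of the 9, 4 were higher in library 1 (0.293% of all tested) and 5 were higher in library 2 (0.384%). The split moved with the scaling, with 2 and 10 under DESeq2 size factors, 10 and 4 under total gene counts and 17 and 3 when scaled to the OrsaiCp total. The DESeq2 size factors were 1 for both libraries, so that setting compared the counts unscaled. For these other scalings the share of all identifiers called was not taken. None of the 9 differed by 1.5-fold or more, while 0.111% of all identifiers tested were both called and 1.5-fold or more apart. With the same test before adjustment, 2 members reached 1.5-fold at a p under 0.05, and 1 did with DESeq2 size factors. The share of all identifiers that did so before adjustment was not taken, so nothing is drawn from these counts.

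The largest differences called were in 3 members higher in library 2, of which OrsaiCp27 and OrsaiCp28 have consecutive numbers. OrsaiCp27 had 1461 counts in library 1 and 1839 in library 2, a log2 ratio of -0.30, or 1.23-fold higher in library 2 (95% interval 1.15 to 1.32, exact binomial adjusted p = 1.11e-06). OrsaiCp28 had 9399 and 11391 counts, a log2 ratio of -0.25, or 1.19-fold higher in library 2 (1.16 to 1.22, exact binomial adjusted p = 6.56e-32). OrsaiCp23, singled out after its values were seen, had 28850 and 34701 counts, a log2 ratio of -0.24.

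In the other direction OrsaiCp33 stood apart. It had 235231 counts in library 1 and 215366 in library 2, a log2 ratio of 0.16, or 1.11-fold higher in library 1 (95% interval 1.11 to 1.12, exact binomial adjusted p = 4.10e-285). OrsaiCp58 came next, with 15953 and 15502 counts, 1.05-fold higher in library 1 (1.03 to 1.07, exact binomial adjusted p = 0.00429). It lost its call under 1 of 5 scalings, the DESeq2 size factors that left the counts unscaled. With the 5 scalings run, OrsaiCp23, OrsaiCp25, OrsaiCp27, OrsaiCp28 and OrsaiCp33 were called each time in an unchanged direction. The share of all identifiers called under each of the 5 scalings was not taken, so this has no background. OrsaiCp02 and OrsaiCp36 changed direction between scalings, with log2 ratios from -0.07 to 0.01 and from -0.07 to 0.0036. OrsaiCp60, called with a log2 ratio of 0.07, was called under 4 of the 5, all but the DESeq2 size factors.

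**Figure D4:**
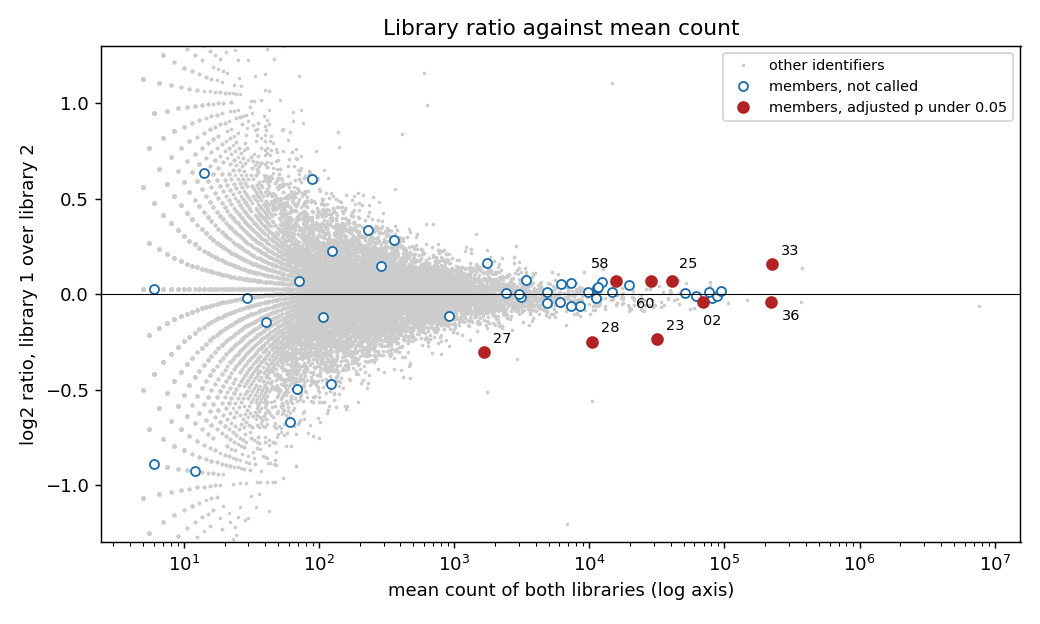
Log2 ratio of library 1 over library 2, scaled by TMM factors, against the mean count (log axis); grey points are other identifiers with 10 or more counts in sum, open circles are members not called and filled circles are the 9 members called, labelled by number. Ratios beyond ±1.3 lie outside the plot, and the members called lie between -0.30 and 0.16.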

How the data were processed

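RNA of a single group was measured in 2 libraries (paired reads of 150 bp). Trimmomatic, HISAT2 and HTSeq are named in the submitters' processing notes. Build, annotation, strand setting and tool versions were not stated there. The authors deposited raw read counts for each gene as whole numbers. FPKM was deposited with each length, per the file headers, and equals the count scaled to length in kb and to gene total to within 5e-06. Summary lines naming no gene (43.0% and 39.1% of all entries) stayed out of library sizes and tests.

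The test was a two-sided exact binomial test (scipy 1.17.1) over all identifiers with 10 or more counts in sum, scaled by edgeR 4.0.16 TMM factors (1.009 and 0.991), with Benjamini-Hochberg adjustment and a threshold of 0.05. DESeq2 1.42.0 gave alternative size factors, which were 1 for both libraries and so left the counts unscaled. R 4.3.3, Python 3.11.15 and pandas 2.3.3 were used. Log2 ratios used a pseudocount of 0.5. Levels, pairs and lengths were described without a test, and intervals are Clopper-Pearson at 95%, for counting error only. At this depth a count of 0 would allow up to 0.166 and 0.160 CPM.

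The members and lists were chosen with earlier results of these data known. Named were all members of equal length, the 6 highest and 6 lowest by count per kb, OrsaiCp60, both sides of the 3 largest steps and at most 2 called higher in each library. Others named were chosen after their values were seen.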

Additional observations from a re-analysis of the deposited data

Results flagged for a closer look

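Entries with more than a single alignment lie outside the counts per identifier and were well over what 0 counts would allow. They made up 27.7% of all entries in library 1 and 25.8% in library 2. How many of them fell on the 10 members of mirrored pairs was not tested, because no count per identifier holds them.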

How the results depend on the processing

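No paired analysis was possible because there is only 1 group of samples. Scaling by MH totals and all settings of the count of low members were chosen after seeing the data. The 9 members called became 14 with total gene counts (8 shared), 20 when scaled to the OrsaiCp total (7 shared) and 0 with a 1.5-fold minimum. The number called lay between 9 and 12 under the 4 other settings. For the other scalings the share of all identifiers called was not taken, so these numbers have no background. Leaving out a library leaves no comparison of libraries. The members' share of 6.78% was 11.5% without OrsaiCp01 in the total and 13.5% of OrsaiCp counts, and 6.68% to 6.88% with a single library. Their median of 531 FPKM was 905 without OrsaiCp01 in the total and 579 among members with 10 or more counts, and 523 to 540 with a single library. The SD of log2 ratios of 0.350 was 0.208 at 100 or more counts and 0.233 from FPKM with a pseudocount of 1. The median of equal-length members over that of the others, 0.0125, was 0.0428 for lengths within 3 bases, 0.0100 for mirrored pairs alone and 0.0129 to 0.0139 with a single library. The 5 mirrored pairs stayed 5 under both alternatives. The 19 low members were 19 at 50 FPKM and with either library alone, and 21 at 200 FPKM. Few counts limit the order of the lowest members.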
